A study of Mus musculus with 6 samples.

Results

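The small leucine-rich proteoglycans are secreted matrix proteins built around a curved domain of leucine-rich repeats, most of which carry chondroitin, dermatan or keratan sulfate chains. The 9 genes described here, *Dcn*, *Bgn*, *Aspn*, *Lum*, *Fmod*, *Prelp*, *Omd*, *Ogn* and *Podn*, were chosen by name and matched through GENCODE M21 symbols to Ensembl identifiers, out of 54232 genes in the deposited counts. RNA from heart ventricle was sequenced from 3 mice on western diet (WD) needle-fed with Tributyrin and 3 mice on WD given vehicle, which the sample labels name PBS. All 6 mice were wild-type C57BL/6J, had been on WD for 15 weeks and were then treated for 3 weeks, 2 days on and 2 days off, with Tributyrin, a triglyceride of butyrate, at 5 g/kg body weight or with vehicle. The libraries held between 20369746 and 32734485 counts. No library from mice on normal chow was part of this comparison, so the effect of the diet itself was not measured, and the labels give neither age nor sex of single mice, while the study used male and female animals.

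These proteins bind to the surface of collagen fibrils and set how the fibrils assemble and how thick they become. Several of them also hold growth factors such as TGF-β in the matrix, and *Bgn* released from the matrix can act on Toll-like receptors of immune cells. In the heart they are made mainly by fibroblasts and, for some members, by cells of valves and vessels, and they are known for their part in scar formation and in the stiffness of the wall. Ventricle pieces are bulk tissue, so fewer cells of a type and less RNA per cell cannot be told apart in any value below.

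With Tributyrin the members did not move as 1 group. *Lum*, *Fmod* and *Prelp*, 3 members of class II, had all 3 Tributyrin values below the lowest vehicle value. *Ogn* had all 3 Tributyrin values above the highest vehicle value, by 11.4% in the mean. *Dcn*, the member with the highest level, differed by 0.287% between the group means. *Bgn*, *Aspn* and *Podn* had lower means with overlapping groups, and *Omd* had a higher mean with overlapping groups.

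None of these differences passed the test across genes. The groups were compared with edgeR's quasi-likelihood test over 14133 genes, of which all 9 members passed the filter on low counts, and 0 genes (0%) passed a Benjamini-Hochberg adjusted p of 0.1. The adjusted p of every member was 0.999. An unadjusted p under 0.05 was found for 600 genes, 4.25% of those tested, and for 4 of the 9 members, of which 3 were lower (*Lum*, *Fmod*, *Prelp*; background 2.28%) and 1 was higher (*Ogn*; background 1.97%). DESeq2 called 11 of the 13179 genes to which it gave an adjusted p (0.0835%) at 0.1, and 0 of the members. It gave 3 members an unadjusted p under 0.05 (*Lum*, *Prelp* and *Aspn*), against 1.8% of 25578 genes. Those 25578 include genes with few reads that the edgeR filter removed, so that share cannot be set beside 4.25%. Limma-voom called 0 genes (0%), with 4 members at an unadjusted p under 0.05 (*Lum*, *Fmod*, *Prelp* and *Aspn*; all genes 4.28%). *Ogn* was not under 0.05 in any alternative with all 6 mice. Without the filter on low counts 5 members had such a p (all genes 4.6%), as did 5 with library size alone (5.65%) and 5 with the replicate number as a block (5.17%), a fit that called 0.0142% of genes at an adjusted p of 0.1. Groups without overlap were found for 4 of the 9 members, against 8.91% of all genes tested, with 3 members lower (all genes 4.65%) and 1 higher (4.26%). A log2 fold change below 0 was found for 6 of the 9 members and for 50.4% of all genes. The median log2 fold change of the members, Tributyrin over vehicle, was -0.26, and that of all genes tested was -0.00129. The 6 libraries were scaled by the TMM method for this test, and the normalized read counts given for each mouse were scaled with DESeq2 size factors.

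**Figure D1:**
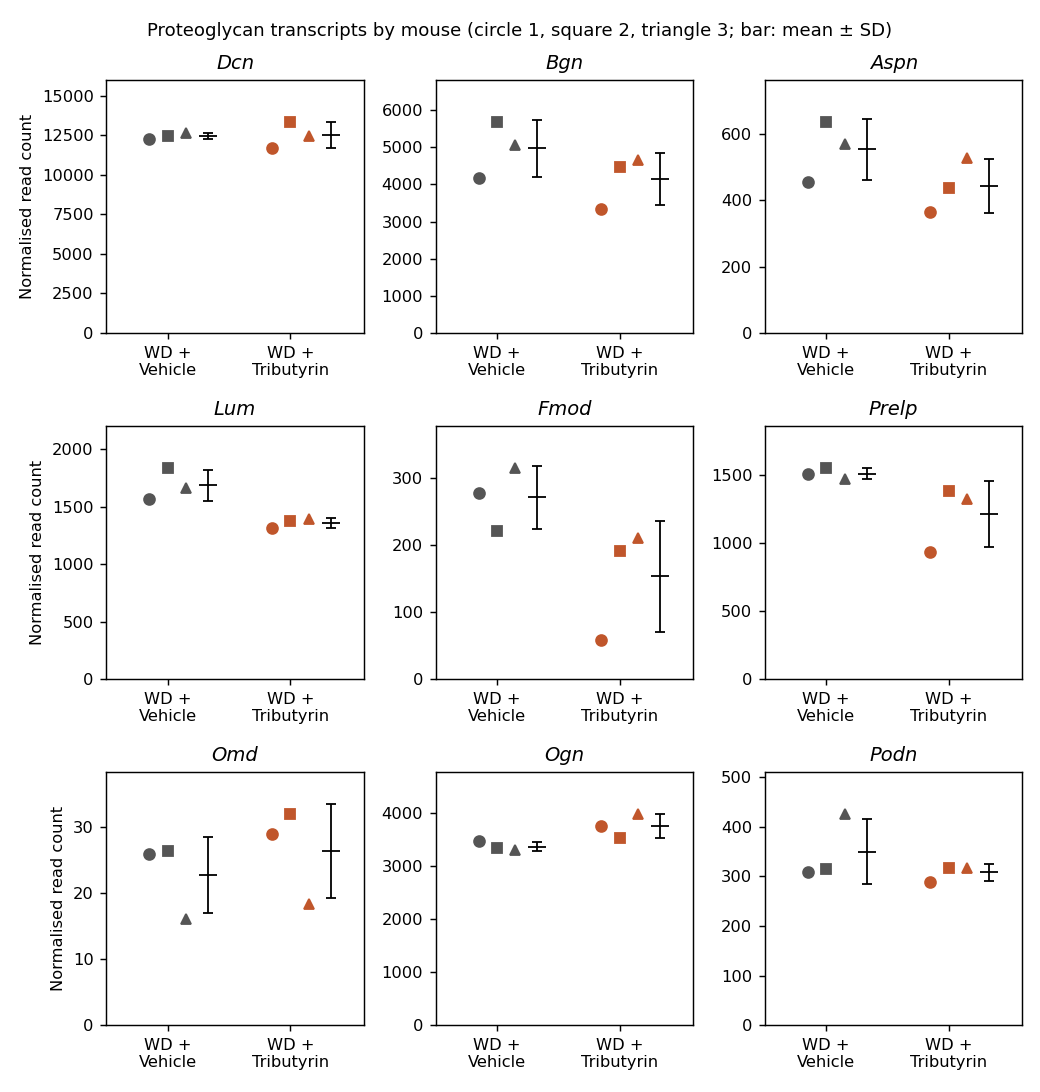
Normalized read counts (vertical axes, from 0) of the 9 proteoglycan transcripts in 3 WD + Vehicle mice (grey) and 3 WD + Tributyrin mice (orange), with circle, square and triangle for replicates 1, 2 and 3 and bars for the mean ± SD (n = 3). *Lum*, *Fmod* and *Prelp* lie lower and *Ogn* higher in all 3 Tributyrin mice, and the other 5 genes overlap.

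**Figure D2:**
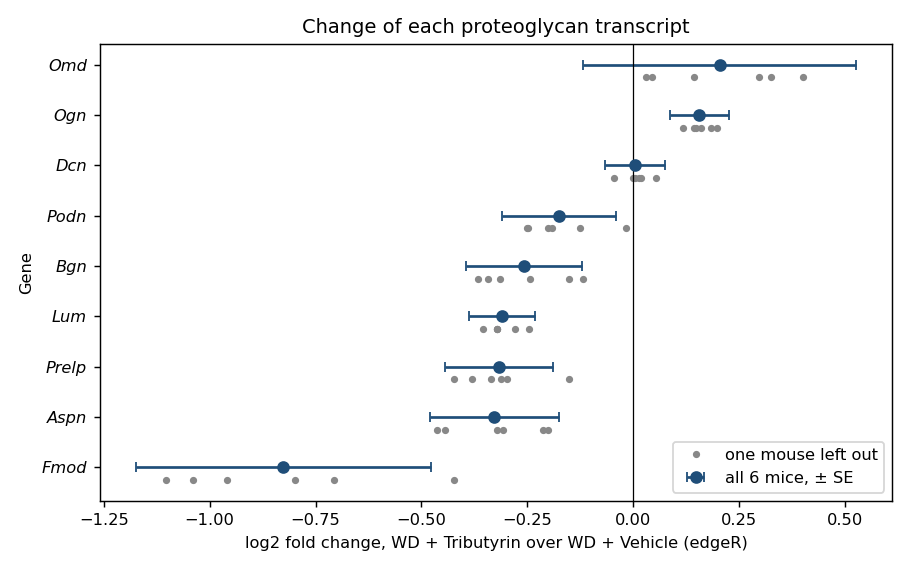
Log2 fold change of each proteoglycan transcript, WD + Tributyrin over WD + Vehicle (horizontal axis), as estimated by edgeR with all 6 mice (blue, ± standard error) and in fits that each omit 1 mouse (grey points). *Fmod* has the largest decrease, -0.83, and the widest range, and the points of *Dcn* fall on both sides of 0.

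Levels between genes were compared per length, as TPM, reads per base of summed exons scaled to an equal total in each library. In the vehicle mice *Dcn* stood first with 194.5 ± 11.4 TPM (SD, n = 3), followed by *Ogn* with 119.2 ± 2.22 and *Bgn* with 74.5 ± 14.2. *Lum* was at 62.8 ± 7.23 TPM, *Prelp* at 38.1 ± 1.90 and *Aspn* at 21.5 ± 4.33. *Podn* (7.48 ± 1.61 TPM) and *Fmod* (7.46 ± 1.35 TPM) did not differ beyond their spread, and neither did *Bgn* and *Lum*, whose values overlapped. *Omd* was last with 0.921 ± 0.220 TPM, from 13 to 35 reads in a library, a depth at which the relative SD from counting reaches 27.7%. The order depends in 1 place on the length used. With the length of the principal coding transcript, an alternative chosen after seeing the data, 2419 bases for *Bgn* in place of 6099 bases of summed exons, *Bgn* (147.3 TPM) stood above *Ogn* (93.6 TPM) in the vehicle mice, and *Dcn* was at 506.9 TPM. Together the 9 genes took between 0.0814% and 0.103% of the counts of a library, and *Dcn* alone gave between 47.8% and 53.8% of those reads. The summed normalized read count of the members ran from 24043 to 26071 with vehicle and from 21808 to 25073 with Tributyrin, and these ranges overlapped.

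**Figure D3:**
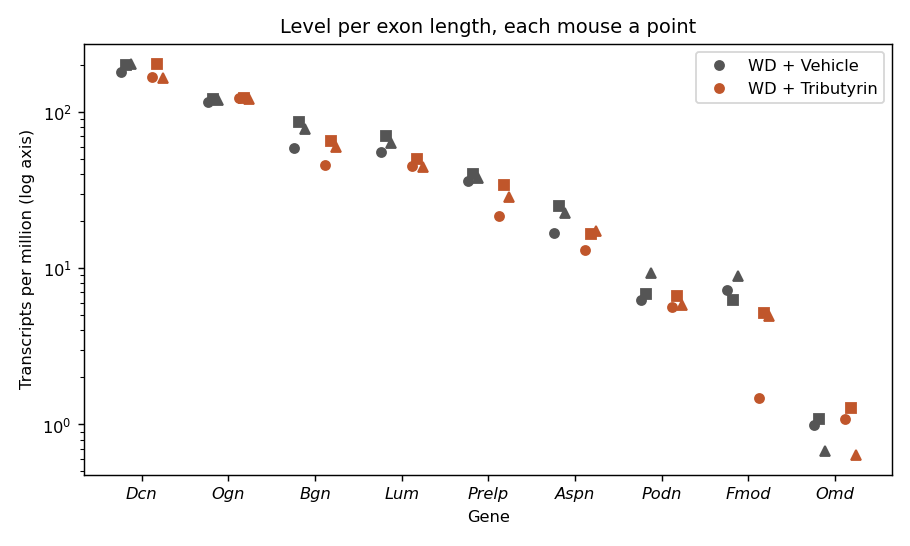
Levels of the 9 proteoglycan transcripts per exon length, in TPM on a log axis, with 1 point per mouse (grey WD + Vehicle, orange WD + Tributyrin). *Dcn* has the highest vehicle mean, 194.5 TPM, and *Omd* the lowest, 0.921 TPM, and the low *Fmod* point of 1.47 TPM is Tributyrin replicate 1.

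The class I members carry chondroitin or dermatan sulfate chains, except *Aspn*. *Dcn*, which encodes decorin and spans 97479609 to 97518143 on the plus strand of chromosome 10 (GRCm38), had normalized read counts of 12269, 12472 and 12675 in the vehicle mice. In the Tributyrin mice it had 11724, 13354 and 12445. The 3 vehicle values lay inside the range of the Tributyrin values. Its log2 fold change was 0.01 (95% interval -0.15 to 0.16), which covers a change of either sign and does not show that the level was the same. With counts scaled by library size alone it was -0.07, and its sign also changed when some single mice were left out.

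*Bgn*, which encodes biglycan and lies on chromosome X from 73483602 to 73495933 on the plus strand, had 4164, 5685 and 5064 normalized read counts with vehicle. With Tributyrin it had 3349, 4462 and 4656. The groups overlapped through vehicle replicate 1, which was under 2 of the Tributyrin mice. The mean differed by -16.4%, from 4971 ± 765 to 4155 ± 706 with Tributyrin (SD, n = 3; two-sided exact permutation test, p = 0.3). The log2 fold change was -0.26 (standard error 0.137) and ran from -0.12 without Tributyrin replicate 1 to -0.37 without vehicle replicate 1. Since the gene is X-linked, the sex of the mice bears on it. The Y-linked *Ddx3y* had between 1802 and 2241 normalized read counts in each of the 6 libraries, and *Xist*, which marks an inactive X, had at most 6.24. This is the pattern of male mice in all 6 libraries.

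*Aspn*, which encodes asporin, a relative of decorin with a stretch of aspartate residues in place of the usual chain attachment site, had 455.3, 635.8 and 570.2 normalized read counts with vehicle. It had 364.7, 436.8 and 526.5 with Tributyrin. Tributyrin replicate 3 lay above vehicle replicate 1, so the groups overlapped, and the means differed by -20.1% (two-sided exact permutation test, p = 0.2). edgeR gave a log2 fold change of -0.33 (standard error 0.152). It ran from -0.46 without Tributyrin replicate 3 to -0.20 without Tributyrin replicate 1. Across the 6 libraries *Aspn* and *Bgn* followed each other, with Pearson r = 0.965 of their log2 values, a description of libraries that share size factors and groups.

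The class II members bind collagen and most carry keratan sulfate. *Lum*, which encodes lumican, lies next to *Dcn* on chromosome 10, from 97565128 to 97572703 on the plus strand, and it was the member with the lowest unadjusted p, at rank 28 of the genes tested. Its normalized read counts were 1565, 1833 and 1657 with vehicle and 1310, 1377 and 1391 with Tributyrin. Every Tributyrin mouse lay below every vehicle mouse. The mean was 1685 ± 136 with vehicle and 1359 ± 43.4 with Tributyrin (SD, n = 3), a difference of -19.3% (two-sided exact permutation p = 0.1, below which 3 mice against 3 cannot go). On the log2 scale the difference was -0.31 (standard error 0.0784, unadjusted p = 0.00257 in edgeR's model across genes), and in fits that each omit 1 mouse it stayed between -0.36 and -0.24. At least 1213 reads were counted on *Lum* in a library, so counting error gives a relative SD of at most 2.87%.

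*Fmod*, which encodes fibromodulin, a protein that competes with lumican for a site on collagen I, had 277.5, 221.0 and 314.3 normalized read counts with vehicle. It had 57.98, 191.0 and 209.9 with Tributyrin. The groups did not overlap, but Tributyrin replicate 1 stood far below the other two Tributyrin mice, which were close to the lowest vehicle mouse. The mean was 270.9 ± 47.0 with vehicle and 153.0 ± 82.8 with Tributyrin (SD, n = 3; two-sided exact permutation test, p = 0.1), or 1.77-fold higher with vehicle. By edgeR the log2 fold change was -0.83 (standard error 0.348, unadjusted p = 0.0384), -0.42 without Tributyrin replicate 1 and -1.10 without Tributyrin replicate 3. DESeq2 gave an unadjusted p of 0.131. Without the filter on low counts, edgeR gave *Fmod* an adjusted p of 1.16e-05 at a log2 fold change of -0.82, in a fit that called 167 of 25581 genes (0.653%), and *Fmod* was the only member among them.

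*Prelp*, which encodes prolargin, a member that anchors collagen to basement membranes, had 1512, 1552 and 1471 normalized read counts with vehicle, the smallest SD relative to the mean among the class II members (2.67%). It had 932.3, 1381 and 1328 with Tributyrin. Every Tributyrin mouse lay below every vehicle mouse, and Tributyrin replicate 1 was again the lowest. The means differed by -19.7% (two-sided exact permutation test, p = 0.1). The log2 fold change was -0.32 (standard error 0.128, unadjusted p = 0.0322 by edgeR) and -0.15 without Tributyrin replicate 1. *Prelp* and *Fmod* lie together on chromosome 1, *Prelp* from 133910304 to 133921414 on the minus strand and *Fmod* from 134037254 to 134048277 on the plus strand, and their log2 values had r = 0.954 over the 6 libraries. An antisense gene, *Gm15851*, shares 350 exonic bases with *Prelp* and had 0 counts.

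*Omd*, which encodes osteomodulin, a bone matrix protein, had 25.99, 26.36 and 16.15 normalized read counts with vehicle and 28.99, 31.98 and 18.35 with Tributyrin. Tributyrin replicates 1 and 2 lay above every vehicle value, and the groups overlapped through Tributyrin replicate 3. Its log2 fold change of 0.20 had a 95% interval from -0.51 to 0.92, which covers a change of either sign. Low depth and the spread between mice were not told apart.

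Class III is represented by *Ogn*, which encodes osteoglycin (mimecan), a keratan sulfate proteoglycan known in heart and vessel wall. It lies on chromosome 13 from 49608046 to 49624501 on the plus strand. Its normalized read counts were 3464, 3330 and 3297 with vehicle and 3753, 3522 and 3969 with Tributyrin. Every Tributyrin mouse lay above every vehicle mouse. The mean was 3364 ± 88.5 with vehicle and 3748 ± 223 with Tributyrin (SD, n = 3; two-sided exact permutation test, p = 0.1). The log2 fold change was 0.16 (standard error 0.0703, unadjusted p = 0.0493 by edgeR), between 0.12 and 0.20 with each mouse left out, and 0.08 with counts scaled by library size alone (unadjusted p = 0.238). As TPM on summed exons the groups overlapped, at 119.2 ± 2.22 with vehicle and 121.9 ± 1.27 with Tributyrin (SD, n = 3). As TPM on principal transcript lengths they did not, at 93.6 ± 1.04 with vehicle and 96.6 ± 0.737 with Tributyrin (SD, n = 3). With library size alone they did not overlap either.

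Class V is represented by *Podn*, which encodes podocan, a collagen-binding member found in vessel walls and known to slow the growth of smooth muscle cells. It had 308.7, 315.6 and 424.9 normalized read counts with vehicle and 288.9, 318.0 and 317.8 with Tributyrin. Vehicle replicate 3 alone stood apart. The log2 fold change of -0.18 (standard error 0.135) became -0.02 without that mouse. The annotated span of *Podn* overlaps *Scp2* on the same strand and 2 small RNA genes, *Gm23354* and *Mir6397*, with 0 exonic bases shared.

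Several members sit in small gene clusters, and the estimates of neighbours did not have the same sign in each of them. *Aspn*, *Omd* and *Ogn* lie within 80059 bases of chromosome 13, all on the plus strand. Their log2 fold changes were -0.33 (standard error 0.152), 0.20 (0.323) and 0.16 (0.0703). The 95% intervals of *Aspn* and *Omd* covered a change of either sign, and differences between these 3 genes were not tested. *Cenpp*, which runs over all 3 of them on the opposite strand, had between 26 and 46 counts in a library and shares 7 exonic bases with *Aspn* and 0 with the other two. *Ecm2*, a related gene beside *Aspn*, was at -0.18 (standard error 0.0937). *Dcn* and *Lum* lie within 93095 bases of chromosome 10 and were at 0.01 and -0.31. The log2 ratio of *Lum* to *Dcn*, which no scaling between libraries can change, was -2.97, -2.77 and -2.94 with vehicle and -3.16, -3.28 and -3.16 with Tributyrin. The ratio was lower in all 3 Tributyrin mice, by 0.31 in the mean (two-sided exact permutation test, p = 0.1), and it was chosen after the data were seen. The ratios of *Fmod* and *Prelp* to *Dcn* were also lower without overlap, and those of the other 5 members overlapped.

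The promoters of the 3 members with groups that did not overlap and an entry in the table used here are shown because the first pair lies in the chromosome 1 cluster and was lower, and the last lies in the chromosome 13 cluster and was higher. They run from 250 bases before to 50 bases after the RefSeq start site on GRCm38.p6, chr1:134037004-134037303 on the plus strand for *Fmod*, chr1:133921352-133921651 on the minus strand for *Prelp* and chr13:49607765-49608064 on the plus strand for *Ogn*. Capitals mark matches, on either strand, to TATAAA (the TATA box), TGANTCA (an AP-1 element), GGAATG (the core bound by TEAD factors) and CAGAC (a SMAD element).
Fmod: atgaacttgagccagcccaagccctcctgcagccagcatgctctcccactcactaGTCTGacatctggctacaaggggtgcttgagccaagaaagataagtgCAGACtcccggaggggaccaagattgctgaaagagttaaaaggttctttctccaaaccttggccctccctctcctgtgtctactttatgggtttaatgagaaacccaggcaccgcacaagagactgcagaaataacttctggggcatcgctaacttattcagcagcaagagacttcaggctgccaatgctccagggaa
Prelp: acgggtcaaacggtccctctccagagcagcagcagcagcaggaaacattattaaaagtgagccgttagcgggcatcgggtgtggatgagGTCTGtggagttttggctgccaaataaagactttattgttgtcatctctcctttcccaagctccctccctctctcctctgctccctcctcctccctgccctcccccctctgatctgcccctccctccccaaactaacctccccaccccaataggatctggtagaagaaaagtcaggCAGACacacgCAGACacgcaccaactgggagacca
Ogn: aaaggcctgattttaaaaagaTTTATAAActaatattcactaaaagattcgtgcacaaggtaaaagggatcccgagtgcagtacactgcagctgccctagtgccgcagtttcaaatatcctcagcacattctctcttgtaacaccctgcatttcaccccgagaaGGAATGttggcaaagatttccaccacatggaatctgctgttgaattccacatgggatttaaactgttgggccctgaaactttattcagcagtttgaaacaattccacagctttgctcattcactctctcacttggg

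*Fmod* held 2 matches and *Prelp* 3, all to CAGAC, which 49.5% of 32544 promoters of the same length hold. *Ogn* held GGAATG at position -86 from the start site, a match found in 14.6% of promoters. It also held TATAAA on both strands in overlapping letters, at positions -227 and -229 from the start site, a match found in 13.6%. TGANTCA, found in 7.79%, had no match in these windows. Their GC content was 51.0%, 55.3% and 42.3%. A match describes the letters and is not evidence of binding. Promoters of 7 of the 9 members were matched, and *Dcn* and *Lum* were not.

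Among the other genes of the family, 6 of 9 passed the filter, with a median log2 fold change of -0.17, and 1 had an unadjusted p under 0.05, against 4.25% of all genes, the share behind each such count in the lists that follow. This was *Chad*, which encodes chondroadherin, a cartilage matrix protein. It had 99.8, 45.0 and 137.9 normalized read counts with vehicle and 11.2, 15.5 and 72.3 with Tributyrin, a log2 fold change of -1.54 (unadjusted p = 0.0272 by edgeR) with overlapping groups. The largest increase in that list was 0.10, of *Nyx*.

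The collagens that these proteins bind were lower in most cases. Of 11 genes of collagens I, III, V, VI, XII and XIV, 10 had a lower mean, 4 had an unadjusted p under 0.05, all lower (*Col1a1*, *Col5a1*, *Col5a2* and *Col14a1*, named after their values were seen; 2.28% of all genes were lower at that p) and 0 passed an adjusted p of 0.1 by edgeR. The median log2 fold change was -0.39, and it ran from -0.20 without Tributyrin replicate 1 to -0.58 without Tributyrin replicate 2. *Col12a1* was lowest at -0.47 (standard error 0.345), and *Col5a3* highest at 0.04 (0.131). The groups overlapped for all 11. Tributyrin replicate 2, with a sum of 16900 normalized read counts, lay within the vehicle range of 14409 to 18744, while the other two Tributyrin mice lay at 11769 and 11382. Of the collagens 6 were lowest in Tributyrin replicate 1 and 5 in Tributyrin replicate 3, and of the proteoglycans 7 were lowest in Tributyrin replicate 1 and 2 in vehicle replicate 3. The share of all genes that were lowest in each library was not computed, so these counts have no background.

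The median fold changes of the enzymes that build the sugar chains were closer to 0. Of 21 tested genes for the linker and for chondroitin and dermatan sulfate, 15 had a lower mean, with a median of -0.06, and 1 had an unadjusted p under 0.05, *Chsy1*, a chondroitin synthase, at -0.23 (standard error 0.0960). Groups without overlap were found for 3 of the 21, all lower (*Chsy1*, *Dse* and *Dsel*, named after their values were seen), against 4.65% of all genes. The range ran from -0.34 for *Chst3*, a chondroitin sulfotransferase, to 0.11 for *Ust*. Of 8 tested genes for keratan sulfate chains, 6 had a lower mean (median -0.09) and 0 had an unadjusted p under 0.05, from -0.33 for *B3gnt2* to 0.11 for *Chst1*. The list thus gave no gene past a threshold for the chains that class II members carry.

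Of 12 proteases that process or cleave these proteins, 7 had a lower mean (median -0.09) and 1 had an unadjusted p under 0.05. This was *Bmp1*, the protease that removes the propeptides of biglycan, osteoglycin and collagen I, at -0.21 (standard error 0.0786), with 689.1, 680.8 and 680.8 normalized read counts against 561.1, 606.7 and 609.1, and no overlap. *Tll1* was lowest at -0.72 and *Adamts4* highest at 0.43, both on few reads. Of 16 receptors, 9 had a lower mean (median -0.03). *Tlr4*, a receptor of free biglycan, was lowest at -0.31 (standard error 0.130) and the only receptor with an unadjusted p under 0.05, and *Egfr*, which decorin can bind, was highest at 0.15. Of 13 bound growth factors and matrix partners tested, 7 had a lower mean (median -0.07), from -0.67 for *Bmp2*, the only one with an unadjusted p under 0.05, to 0.37 for *Mstn*. By edgeR with Benjamini-Hochberg adjustment 0 genes of any of these lists passed an adjusted p of 0.1. With library size alone the median of all genes moved to -0.07, and *Dcn* was then among 7 of 9 proteoglycans below 0.

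**Figure D4:**
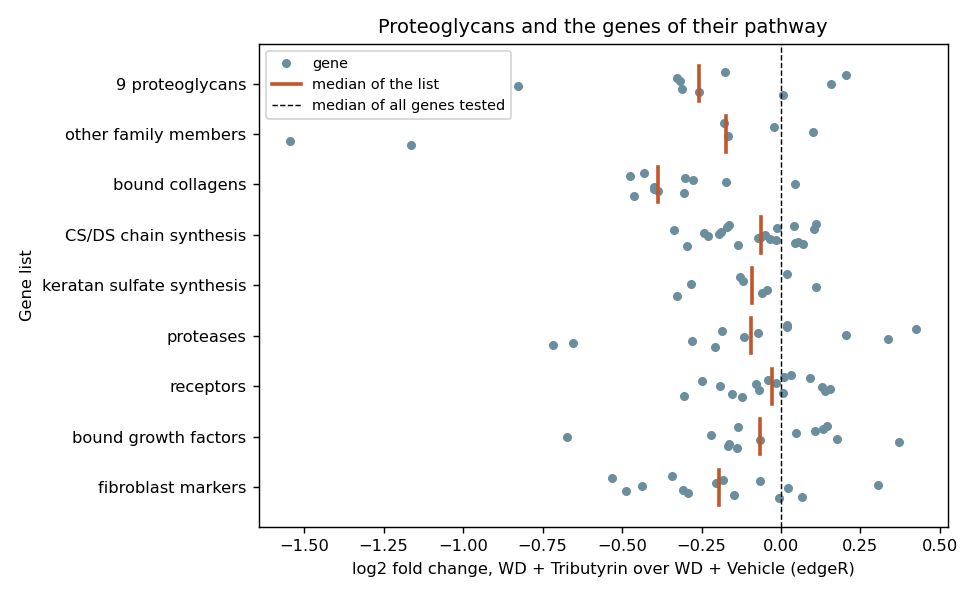
Log2 fold changes by edgeR, WD + Tributyrin over WD + Vehicle (horizontal axis), of single genes (points) in the proteoglycans, the lists of their pathway and the fibroblast markers, with the median of each list (orange) and of all genes tested (dashed). The median is -0.26 for the proteoglycans and -0.39 for the bound collagens, and the enzyme, protease, receptor and growth factor lists lie closer to 0.

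Some lists of markers of the cells in these samples also had a median log2 fold change below that of all genes tested. The 14 fibroblast markers had a median log2 fold change of -0.19, with 11 lower, and their summed normalized read count ran from 51583 to 54868 with vehicle and from 45891 to 57661 with Tributyrin. A single gene, *Gsn*, gave between 69.8% and 75.0% of that sum, and without it the sum ran from 13099 to 16330 with vehicle and from 12001 to 14427 with Tributyrin. *Pdgfra* and *Tcf21*, which define resident fibroblasts, were at -0.01 and 0.07. Of the 14 markers, 3 had an unadjusted p under 0.05 by edgeR. *Mfap5* (-0.49) and *Pi16* (-0.44) were lower (2.28% of all genes at that p), and *Dpep1* was higher (1.97%). *Postn*, a gene of activated fibroblasts, was lowest at -0.53 (standard error 0.271), and *Dpep1* was highest at 0.30 (0.0773). Relative to the mean log2 level of these markers within each library, the values of *Lum*, *Fmod*, *Prelp* and *Ogn* overlapped between the groups. The differences were -0.12 for *Lum*, -0.83 for *Fmod*, -0.15 for *Prelp* and 0.34 for *Ogn*, with two-sided exact permutation p of 0.3, 0.2, 0.5 and 0.2. The difference of *Ogn* was larger here than its edgeR log2 fold change of 0.16. The reference mean includes genes that were lower themselves, such as *Postn*, so it does not measure the number of fibroblasts. With 3 mice in a group, an overlap does not show that a difference was lost. The part of the fibroblasts in the results was not tested.

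Transcripts that mark valve, tendon and atrium also varied between the libraries, and most of those tested had a lower mean with Tributyrin. Of the 9 valve and tendon markers 6 were tested, with a median log2 fold change of -0.55, and 5 had a lower mean. The 9 markers summed to between 551.6 and 731.7 normalized read counts with vehicle. With Tributyrin the sums were 266.5, 625.9 and 629.8. Tributyrin replicate 1, the mouse with the low *Fmod*, was the lowest. *Cilp2* was lowest of that list at -1.74, followed by *Hapln1* at -1.48, *Comp* at -0.76 and *Sox9* at -0.34. *Scx* and *Thbs4* were at -0.07 and 0.10. The cartilage markers *Acan* and *Col2a1* had at most 9.18 and 7.45 normalized read counts. The 6 atrial markers summed to 4788, 4540 and 1414 with vehicle and to 815.4, 1687 and 1219 with Tributyrin, a sum that was highest in vehicle replicates 1 and 2, where *Myl4* and *Myl7* made up most of it. *Sln* was lowest of the list at -2.24. *Nppa*, highest of the list at -0.53, had another pattern, with 554.0, 484.6 and 1046 normalized read counts with vehicle and 295.5, 415.7 and 730.7 with Tributyrin. All 5 atrial markers that passed the filter had a lower mean, with a median log2 fold change of -1.94. Of these, 4 had an unadjusted p under 0.05 by edgeR, all lower, against 2.28% of all genes. The groups overlapped for all 5, and 0 passed an adjusted p of 0.1. The part of the valve, tendon and atrial transcripts in the results was not tested.

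**Figure D5:**
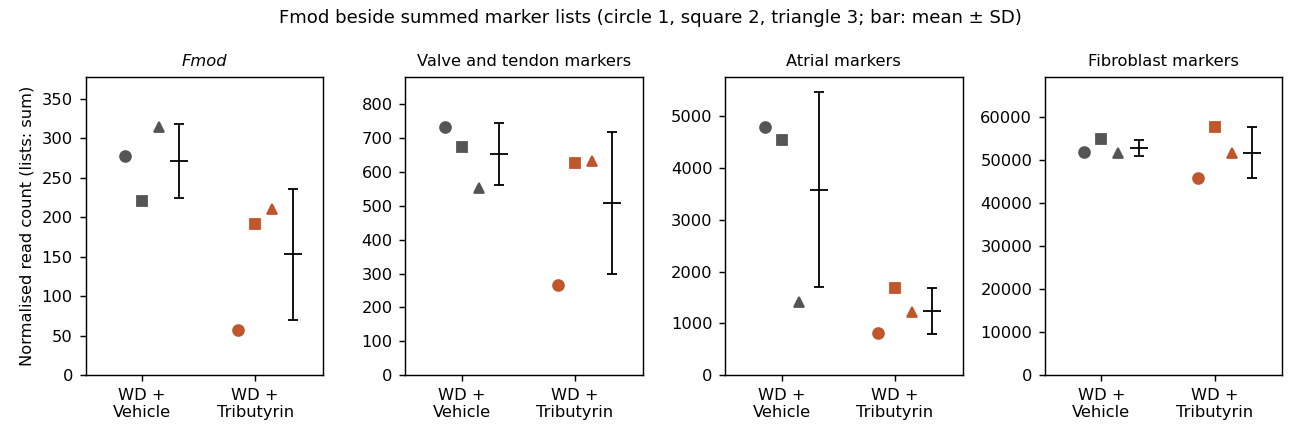
*Fmod* beside the summed valve and tendon, atrial and fibroblast markers, as normalized read counts (vertical axes, from 0), in WD + Vehicle (grey) and WD + Tributyrin mice (orange), with circle, square and triangle for replicates 1, 2 and 3 and bars for the mean ± SD (n = 3). Tributyrin replicate 1 is the lowest of the 6 mice in each panel, and vehicle replicates 1 and 2 stand apart in the atrial panel, while *Gsn* makes up most of the fibroblast sum.

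The other marker lists that could be tested had medians closer to 0, but not every gene in them changed less. Cardiomyocyte markers had a median of 0.05 with 5 of 8 higher, from -0.14 for *Actn2* to 0.23 for *Tnnt2*. Endothelial markers had a median of 0.05, with *Fabp4* highest at 0.28 and *Tie1* lowest at -0.09. Mural markers had a median of 0.05, with *Myh11* highest at 0.59 (unadjusted p = 0.00535 by edgeR, no overlap) and *Pdgfrb* lowest at -0.19. Macrophage markers had a median of -0.05, from -0.12 for *Csf1r* to 0.04 for *Ptprc*, and epicardial markers one of -0.10, from -0.34 for *Upk3b* to 0.14 for *Wt1*. An unadjusted p under 0.05 by edgeR was found for 2 cardiomyocyte, 1 endothelial and 1 mural marker, all higher (1.97% of all genes). It was found for 0 macrophage and 0 epicardial markers. The cardiomyocyte, endothelial and mural lists each held 1 gene with groups that did not overlap, higher in each case (4.26% of all genes). With library size alone the cardiomyocyte median was -0.03, the endothelial one -0.02 and the mural one -0.01. Of 5 adipocyte markers 0 passed the filter, and they summed to at most 75.8 normalized read counts.

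For 8 of the members the gene outside the family with the most similar pattern was found among 9692 genes with a mean CPM of at least 5, by Pearson r of log2(normalized count + 0.5) over the 6 libraries. It was *Cd55* for *Lum* (r = 0.996), *Eci1* for *Ogn* (0.996), *Erf* for *Fmod* (0.996), *Sept9* for *Bgn* (0.992) and *Tnfrsf12a* for *Prelp* (0.991). For *Dcn* it was *Ftl1* (0.990), for *Podn* *Enc1* (0.989) and for *Aspn* *Serpinf1* (0.988). These are the highest of many values over few libraries that share groups and scaling, and they are given as a description.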

How the data were processed

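Stranded mRNA-seq was conducted on heart ventricle RNA from 3 WD + Tributyrin and 3 WD + Vehicle mice, grouped by their labels. Per the study's methods and the submitters' processing notes, the authors trimmed adapters (cutadapt 1.13), removed low-quality and rRNA reads, mapped the rest with STAR to mm10 and used htseq-count (HTSeq 0.6.1p1). They deposited whole-number read counts per Ensembl gene without normalization, and 0 lines name no gene. For counting, the annotation release and strand setting, and for STAR its version, are not given in the sources used. Without a known strand setting, reads of a gene and its antisense partner cannot be told apart. The labels do not tell whether the mice shared litters or cages, and p-values measure the spread between these 6 libraries.

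Names and positions came from GENCODE M21 (GRCm38, the build named mm10), with 54165 of 54232 identifiers matched. Counts were compared with edgeR 4.0.16 (R 4.3.3; filterByExpr at its defaults, count 10 and total 15, TMM scaling, quasi-likelihood test, no covariate, Benjamini-Hochberg adjustment over all genes tested). Standard errors are the fold change over the root of the F statistic. Size factors came from DESeq2 1.42.0, and exact permutation tests from scipy 1.17.1. TPM used the summed exons of each gene. Alternatives were other scalings, other filters, DESeq2, limma-voom (limma 3.58.1), a block for the replicate number, and fits omitting 1 mouse each. The edgeR step was tested on simulated data. Named genes are the members, those with the largest rise and fall of each list, genes that overlap a member, the closest pattern of each member (that of *Omd* is not reported here), and defining markers. *Ecm2*, *Chsy1*, *Dse*, *Dsel*, *Bmp1*, *Gsn*, *Myl4*, *Myl7*, *Scx*, *Hapln1*, *Comp*, *Sox9*, *Acan*, *Col2a1* and the 4 collagens past an unadjusted p of 0.05 were named after their values were seen. So were *Mfap5* and *Pi16*. The members, lists and tests were chosen with earlier results of these data known.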

Additional observations from a re-analysis of the deposited data

How the results depend on the processing

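The count of genes past an adjusted p of 0.1 by edgeR, 0 with all 6 mice, was 167 without the filter on low counts, 11 by DESeq2 and 2 with the replicate block, and from 0 to 3 with each mouse left out. At 0.05 it was 140, 5 and 0, and from 0 to 3 with each mouse left out. Of the proteoglycans, 4 had an unadjusted p under 0.05 in the edgeR fit, against 2 with a mean CPM of at least 5 (all genes 3.78%), where *Omd* was not tested, 3 with the size factors of DESeq2 (4.3%), 5 with library size alone, 5 with the replicate block, and from 1 (without vehicle replicate 3) to 5 with each mouse left out, where the share of all genes ran from 2.68% to 9.56%. The median log2 fold change of the members ran from -0.32 to -0.13 with each mouse left out, the latter without Tributyrin replicate 1, and groups without overlap were then found for 4 to 6 members, against 15.2% to 27.3% of all genes. *Dcn* changed sign with library size alone (log2 fold change -0.0670, difference of -595.0 normalized read counts), without vehicle replicate 1 (-0.00136 and -65.5) and without Tributyrin replicate 2 (-0.0464 and -387.2), and with each mouse left out its log2 fold change lay between -0.0464 and 0.0548 and its difference between -387.2 and 427.6. The other 8 members kept their direction in every alternative in which they were tested, and *Fmod* was the only member past an adjusted p of 0.1 in any, at 1.16e-05 without the low-count filter. The cause of these shifts was not tested. The replicate number was fitted as a block although same-numbered libraries deviated together with correlations of only 0.21, 0.04 and 0.01, which shows no pairing by number. Not every library correlated best with its own number, and the block changed no member's call at an adjusted p of 0.1. Under an unadjusted 0.05 the block gained *Bgn* and *Aspn* and lost *Ogn*, the only higher member. For *Omd* the depth limits what can be seen, with as few as 13 reads in a library. *Fmod* had 62 reads in Tributyrin replicate 1, where counting gives a relative SD of 12.7%. The SD between the Tributyrin mice was 54.1% of their *Fmod* mean. The read numbers and the 12.7% cover counting error only.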
